A study of Mus musculus with 6 samples.

Results

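The genes described here are 40 genes of the endoplasmic reticulum (ER) listed by name: chaperones of the ER lumen, protein disulfide isomerases, parts of the translocation channel, COPII and retrieval genes, genes of ER-associated degradation, and the sensors and transcription factors of the unfolded protein response (UPR). Genes are in the list by name, with no threshold on a measured value, and 39 of the 40 could be measured among 18194 genes tested. Sec61g, which encodes a small subunit of the translocation channel, has a probe set that also names other genes and was left out. Expression was measured in whole mammary glands of 3 WT mice (Nas478, Nas483 and Nas484) and 3 Rac1-/- mice (Nas496, Nas497 and Nas518) at involution day 2, with 1 array per mouse. Involution is the regression of the milk-producing gland that begins when suckling stops, and here it was started by removing the pups. Both groups were age-matched females that carried a floxed Rac1 gene on both alleles and a YFP reporter, so the WT mice were Rac1fx/fx;YFP without Cre. The Rac1-/- mice also carried the WAPiCre transgene, in which the whey acidic protein promoter drives Cre in luminal cells from mid-pregnancy. Stromal and myoepithelial cells of these glands keep Rac1, and some luminal cells escape deletion.

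Proteins that are to be secreted enter the ER through the Sec61 channel, are folded there by chaperones such as BiP (Hspa5) and receive disulfide bonds from protein disulfide isomerases. Folded cargo leaves in COPII vesicles, and chains that fail to fold are pulled back into the cytosol and degraded. When unfolded chains pile up, the sensors Ern1 (IRE1), Eif2ak3 (PERK) and Atf6 raise the transcription of many of these genes through Xbp1, Atf4, Ddit3 (CHOP) and Atf6 itself. The alveolar cells of a lactating gland make large amounts of secreted milk protein and are rich in rough ER.

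Most of these ER genes had a lower mean in Rac1-/- than in WT glands at involution day 2, but none passed the test. Of the 39 genes, 34 had a log2 fold change below 0 and 5 above 0, with a median of -0.57, whereas the median of all genes was 0.06 and 46.1% of them lay below 0. These are mostly bright genes, since 34 of the 39 fall among the 4549 genes with the highest mean, where the median was -0.07 and 55.5% lay below 0. Those 34 had a median of -0.56, with 30 below 0. In limma with Benjamini-Hochberg adjustment over all genes, 0 of 18194 genes (0%) passed an adjusted p under 0.05, and the smallest adjusted p among the 39 was 0.946. At an unadjusted p under 0.05, 1 of the 39 was lower, against 1.82% of all genes, and 0 were higher, against 2.23%. The Rac1-/- values all lay below the WT values for 3 of them, namely Dnajb9, Xbp1 and Pdia4, against 4.20% of all genes, and for 0 did they all lie above, against 5.41%. The counts of single genes were thus near those over all genes, and what set the list apart as a description was its common direction. Of 56 further probe sets of these genes, 44 had the sign of the brightest one.

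**Figure D1:**
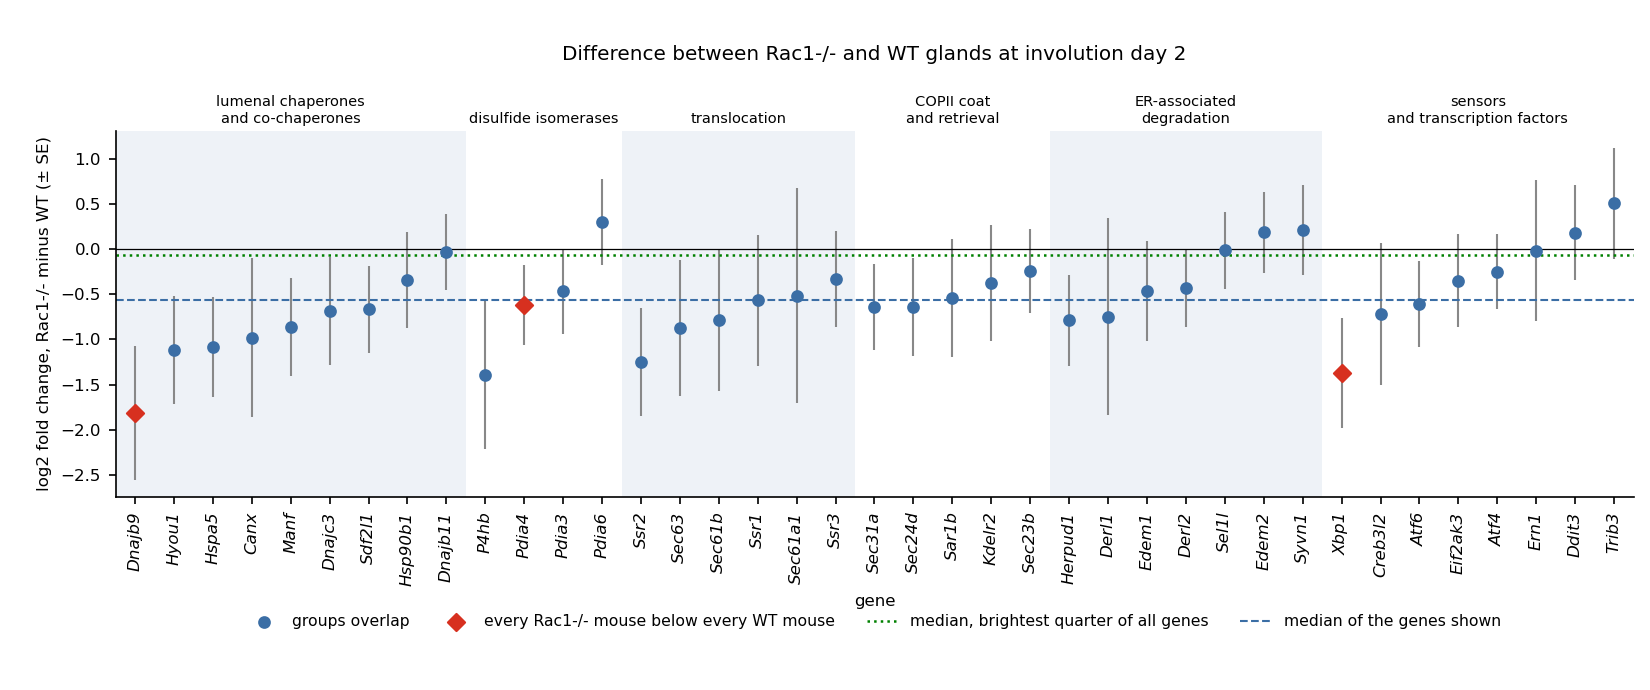
Log2 fold change, Rac1-/- against WT (y axis) for the 39 measured genes, ordered by role on the x axis, with n = 3 mice per group. Points are limma estimates and bars are SE, and red diamonds mark Dnajb9, Pdia4 and Xbp1, the genes whose groups did not overlap. The dashed line is the median of the genes shown, -0.57, and the dotted line that of the 4549 brightest genes, -0.07.

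This direction was shared unequally by the mice. For each mouse, the median over the 39 genes of the distance from the 6-mouse mean was 0.30 in Nas478, 0.30 in Nas483 and -0.02 in Nas484 among the WT mice, and 0.11 in Nas496, -0.74 in Nas497 and -0.05 in Nas518 among the Rac1-/- mice. The groups overlapped, and Nas497 lay far below the rest. Over the 4549 genes with the highest mean, the same median was also lowest in Nas497, at -0.206 against -0.044 to 0.10 in the other mice. Over all genes it was highest in Nas497, at 0.195. Nas497 was the lowest mouse for 20 of the 39 genes (51.3%, against 19.8% of all genes). This share was not counted among bright genes alone. The highest mouse was 1 of the WT mice for 30 of the 39 genes. By mouse this was 15.4% for Nas478 (11.8% of all genes), 28.2% for Nas483 (12.7%) and 33.3% for Nas484 (17.3%). Without Nas497 the median of the 39 genes was -0.20, with 29 below 0, and without both Nas484 and Nas497 it was -0.34, with 33 below 0.

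Values of the arrays themselves moved with these mice. The first principal component (44.3% of the variance) spread the arrays out, with Nas478 at -77.8, Nas483 at -74.4 and Nas496 at -36.2. Nas518 lay at 4.7, and Nas484 (64.5) and Nas497 (119.2) were at the high end. Nas497 had the narrowest log2 interquartile range, 1.23 against up to 2.85. Signal at the 3' end of actin less that at its 5' end (log2) is often read for RNA quality. It was -0.17 to 0.05 on WT arrays and -1.24 to -0.30 on Rac1-/- arrays. This actin difference thus separated the groups, and it was lowest in Nas497. The same difference for Gapdh did not separate them, at -0.04 to 0.16 in WT and -0.06 to 0.18 in Rac1-/- arrays, and was highest in Nas497. With the actin difference as a covariate the median of the 39 genes was -0.08 and 22 lay below 0. Since the covariate separates the groups, its part and that of genotype cannot be told apart in this fit. The same holds for the actin covariate values of single genes given below. With arrays scaled to a common median in place of quantile normalization, it was -1.23 with all 39 below 0, and the median of all genes moved to -0.12. The part of RNA quality and array range in these differences was not tested. Rac1 itself, on its brightest probe set, had log2 intensities of 8.97 to 9.50 in WT and 9.01 to 9.84 in Rac1-/- glands. The sources used here do not give the deleted exons, so this does not check the labels.

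**Figure D2:**
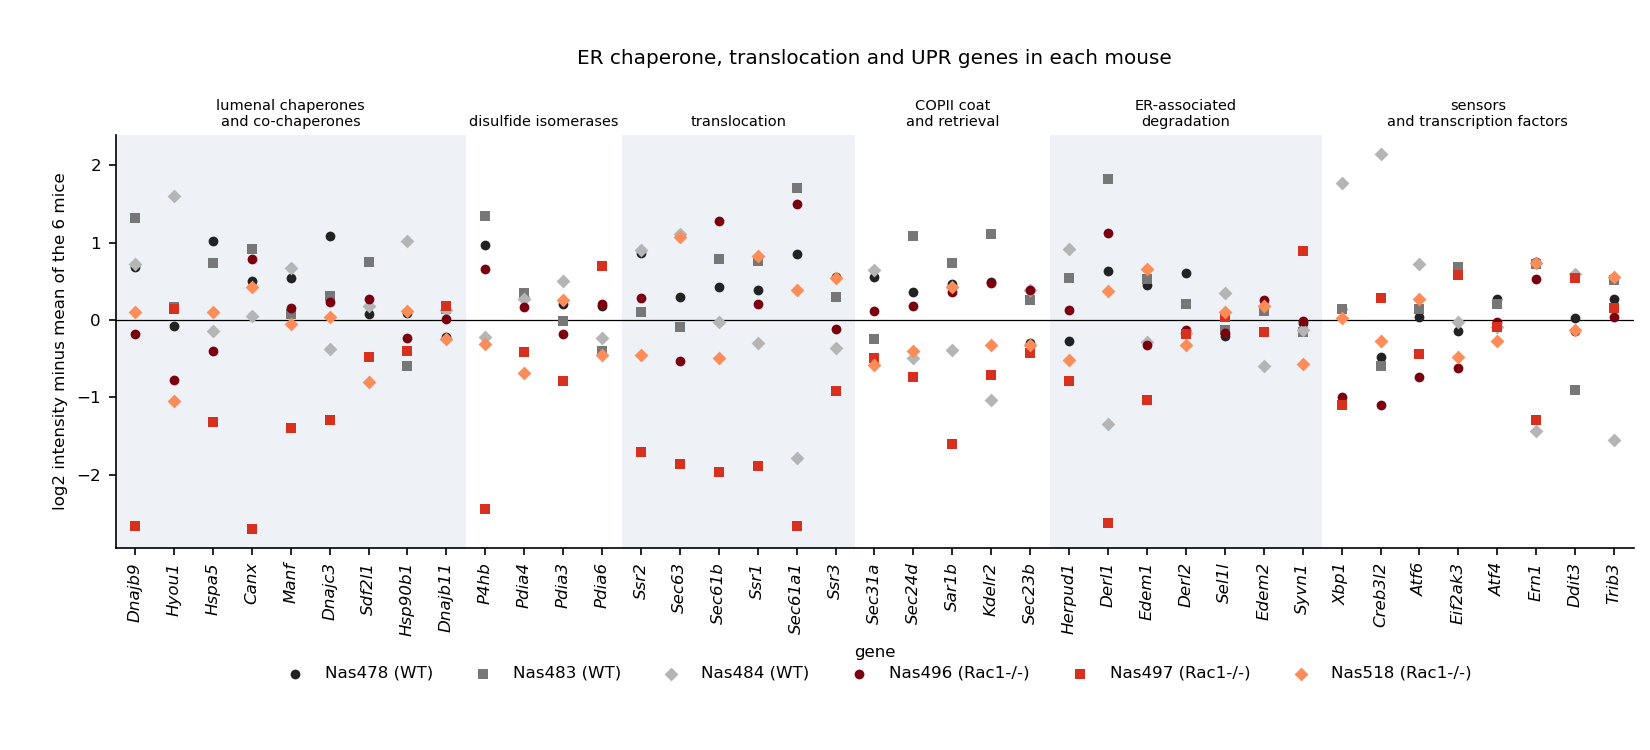
Log2 intensity of each of the 39 genes in each mouse, as the distance from the gene's mean over the 6 mice (y axis), with genes grouped by role (x axis). Grey symbols are WT mice and red to orange symbols Rac1-/- mice, 1 symbol per mouse. The red squares of Nas497 are the lowest symbols for 20 genes, most clearly among chaperone and translocation genes.

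All 9 chaperones and co-chaperones of the ER lumen had a lower mean in Rac1-/- glands. Their median log2 fold change was -0.86, and 1 of them, Dnajb9, was lower at an unadjusted p under 0.05. Dnajb9, a J-domain co-chaperone of BiP that also restrains Ern1, was measured at a log2 intensity of 8.54 in Nas478, 9.18 in Nas483 and 8.59 in Nas484, the WT mice, and of 7.69 in Nas496, 5.21 in Nas497 and 7.96 in Nas518, the Rac1-/- mice. All Rac1-/- values lay below all WT values, and Nas497 lay far below the other Rac1-/- mice. The log2 fold change of Dnajb9 was -1.82 (SE 0.74, limma adjusted p = 0.946), the one furthest from 0 among the 39 genes, and a single probe set reads the gene. Leaving out Nas497 gave -1.001, and the actin covariate gave -0.03.

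Hspa5 encodes BiP, the main Hsp70 chaperone of the ER and the classical target of the UPR. WT mice had log2 intensities of 11.998, 11.71 and 10.83, and Rac1-/- mice had 10.57, 9.66 and 11.07, in the order of mice given for Dnajb9, a log2 fold change of -1.08 (SE 0.55). The groups overlapped, since Nas518 lay above the WT mouse Nas484. Another bright probe set of Hspa5 gave 10.81, 10.43 and 11.86 in WT and 10.25, 9.45 and 9.26 in Rac1-/- mice, where the groups did not overlap (-1.38, SE 0.56), and a dim probe set gave -2.59 (SE 0.96) with overlap. Hspa5 on its brightest probe set was -0.70 without Nas497, -2.24 with a common median and -0.11 with the actin covariate. All 3 probe sets of Hspa5 pointed the same way.

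The other lumenal chaperones ranged from -1.12 (SE 0.60) for Hyou1, an Hsp70-like nucleotide exchange factor of BiP, to -0.04 for Dnajb11, a further J-domain partner of BiP. Their groups overlapped. Canx, the lectin chaperone calnexin, had -0.98 (SE 0.88), Manf, a secreted and ER-resident stress protein, had -0.86, and Dnajc3 and Sdf2l1, which work with BiP, had -0.68 and -0.67. Hsp90b1, the Hsp90 of the ER (GRP94), had -0.34. The size of Hyou1 depended on the probe set, since others gave -2.59 (SE 0.93), with no overlap of the groups, and -0.13 (SE 0.47). For Dnajc3 another probe set gave -1.01 (SE 0.49) with no overlap, and its remaining ones were below 0 with overlap. The dimmest probe set of Canx gave 0.85 (SE 0.98) and its remaining one -0.86 (SE 0.66), both with overlap.

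**Figure D3:**
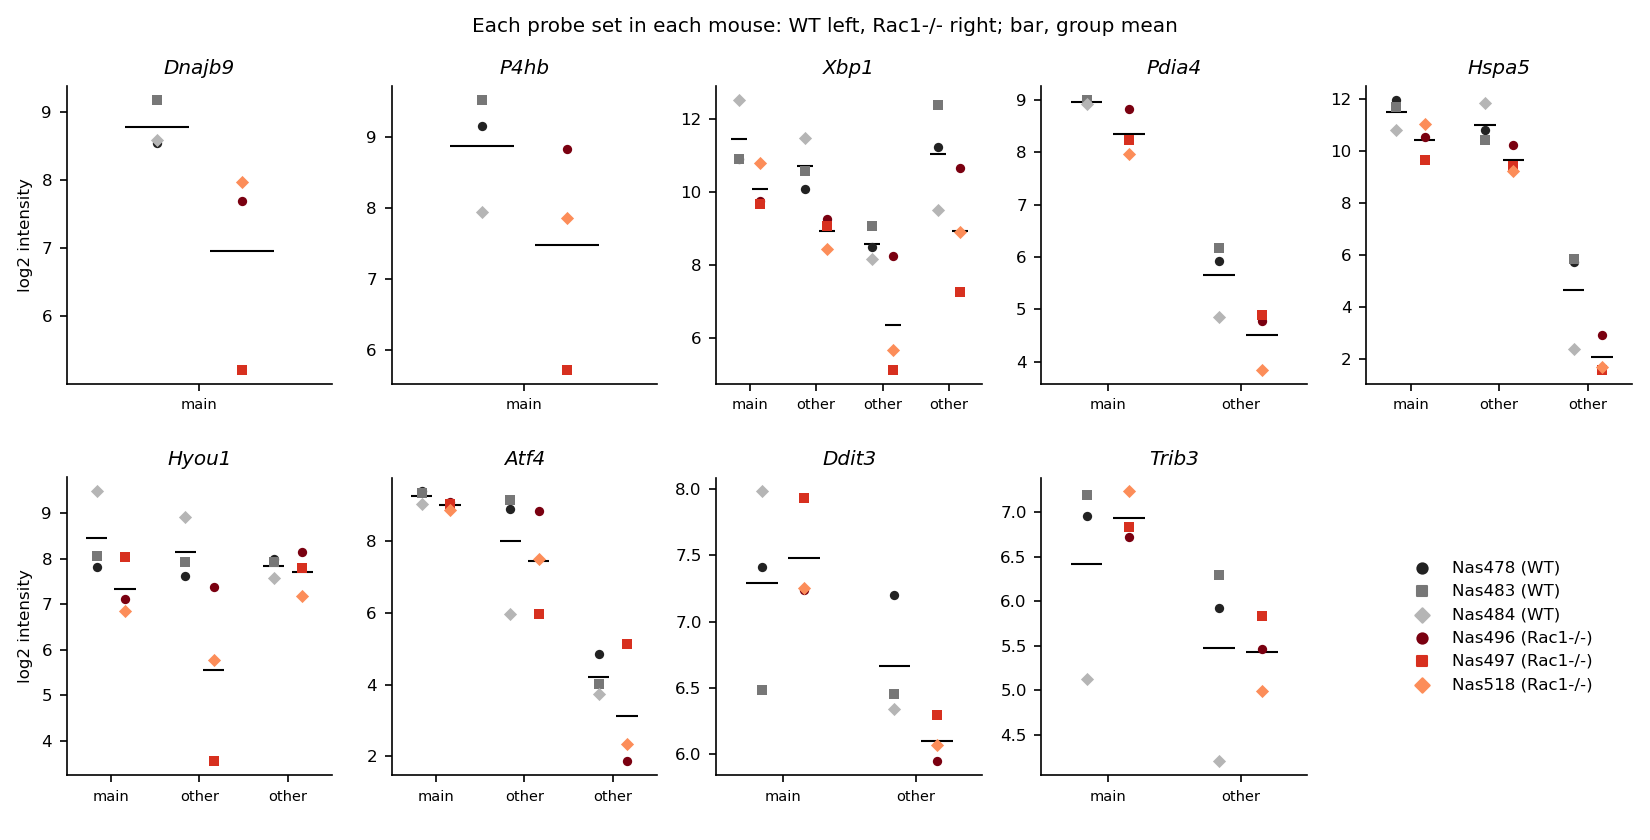
Log2 intensity (y axis) of every probe set that names only the gene in the panel, for 9 genes, with WT mice left and Rac1-/- mice right of each tick. Each symbol is 1 mouse and each bar a group mean, and the probe set used in the text is marked main. The Rac1-/- mean is lower on every probe set of Xbp1, Hspa5, Pdia4, Hyou1 and Atf4, and for Ddit3 and Trib3 the direction changes with the probe set. Whether the groups overlap changes with the probe set for Xbp1, Hspa5, Pdia4, Hyou1 and Ddit3. Levels of different probe sets are not comparable.

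Protein disulfide isomerases form and shuffle disulfide bonds in the ER. Pdia4 had log2 intensities of 8.96, 9.01 and 8.93 in WT and 8.83, 8.24 and 7.96 in Rac1-/- mice, again in the order of mice given for Dnajb9. The WT mice were nearly equal, all Rac1-/- values lay below them, and Nas496 lay only 0.10 below the lowest WT mouse. The log2 fold change was -0.62 (SE 0.44), and a dimmer probe set of Pdia4 gave -1.15 (SE 0.56) with overlap. With a common median it was -1.46.

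P4hb, the classical protein disulfide isomerase, had log2 intensities of 9.14, 9.52 and 7.95 in WT and 8.83, 5.72 and 7.86 in Rac1-/- mice, a log2 fold change of -1.40 (SE 0.82). The groups overlapped and Nas497 was the only mouse below 7. Without Nas497 the log2 fold change of P4hb was -0.55, and with the actin covariate it was 0.49. Pdia3, which folds glycoproteins with calnexin, had -0.47. Pdia6, which also acts on the sensor Ern1, had 8.44, 7.86 and 8.03 in WT and 8.47, 8.95 and 7.81 in Rac1-/- mice, with a difference of 0.30 (SE 0.48) that was 0.34 on its other probe set. Pdia6 was thus the isomerase with a higher mean in Rac1-/- glands, with overlapping groups, and it was -0.59 with a common median and -0.26 with the actin covariate.

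Many genes of this kind carry an ER stress response element in their promoter, which Atf6 binds together with the CCAAT factor NF-Y and which Xbp1 can also bind. The elements searched on both strands were ERSE (CCAAT, 9 free bases, CCACG), ERSE-II (ATTGG, 1 free base, CCACG), UPRE (TGACGTGG) and the composite element read by Atf4 and C/EBP (TGATG, 1 free base, AAT), in the 250 bases before and 50 after each start in RefSeq's table of GRCm38.p6. A promoter was held for 32 of the 39 measured genes. The 250 bases before the start of Hspa5, chr2:34771840-34772089 on the + strand, are shown because Hspa5 is the reference gene of the response, with the ERSE flanks in capitals.

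Hspa5 promoter: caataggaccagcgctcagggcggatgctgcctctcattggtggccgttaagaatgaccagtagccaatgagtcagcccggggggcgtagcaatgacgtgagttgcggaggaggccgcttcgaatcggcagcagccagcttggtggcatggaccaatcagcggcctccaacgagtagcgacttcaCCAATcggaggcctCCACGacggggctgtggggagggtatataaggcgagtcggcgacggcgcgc

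The exact ERSE match of Hspa5 lies 65 to 47 bases before the start, and inexact forms of the element were not searched. The ERSE and ERSE-II matches of the other genes follow gene by gene, 5' to 3' along the element, with the fixed bases in capitals. They are shown because an exact ERSE is rare, with 39 of 32851 promoters (0.119%) holding it.
Hsp90b1, chr10:86705638-86705656, - strand: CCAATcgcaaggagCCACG
Hsp90b1, chr10:86705533-86705551, + strand: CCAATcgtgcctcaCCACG
Pdia6, chr12:17266491-17266509, + strand: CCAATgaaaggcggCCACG
Canx, chr11:50325800-50325818, - strand: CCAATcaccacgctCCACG
Dnajc3, chr14:118937827-118937845, + strand: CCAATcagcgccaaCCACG
Syvn1, chr19:6046532-6046550, + strand: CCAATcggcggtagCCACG
Herpud1, chr8:94386377-94386387, + strand: ATTGGgCCACG
Dnajb11, chr16:22857852-22857862, + strand: ATTGGcCCACG

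An ERSE or ERSE-II was found for 8 of the 32 genes (25.0%), against 0.201% of tested genes with a promoter in the table and 0.155% of all promoters. All but the Hsp90b1 match on the + strand run in the direction of the gene, and that of Dnajb11 lies after the start. Among these ER genes, those with and without the element had the same median. The 8 genes with an element had a median log2 fold change of -0.51 with 6 below 0, and the 24 without had -0.51 with 21 below 0. The 21 other tested genes with an ERSE or ERSE-II, chosen by sequence alone, had a median of -0.35 with 15 below 0, and genes without an ERSE had 0.06. A UPRE was found for Sec24d among the 32 genes, against 0.989% of tested genes (0.676% of promoters), and the composite element for 0, against 0.726% (0.965%). A match is a run of letters and not a measured binding site.

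Translocation genes showed the same direction for all 6 measured, with a median of -0.68, and the widest spread between mice. Ssr2, a subunit of the translocon-associated complex, had 9.0, 8.24 and 9.03 in WT and 8.41, 6.42 and 7.68 in Rac1-/- mice, a log2 fold change of -1.25 (SE 0.60) with overlap. Sec61a1, the pore subunit of the channel, had 9.67, 10.52 and 7.04 in WT and 10.32, 6.16 and 9.21 in Rac1-/- mice (-0.52, SE 1.19). In Sec61a1 the difference was smaller than its error. Nas484 and Nas497, the arrays at the high end of the first principal component, held the lowest values of their groups. Sec63, a channel partner that recruits BiP, had -0.88, Sec61b had -0.79, and Ssr1 and Ssr3, of the same complex as Ssr2, had -0.57 and -0.33. Over the 6 genes the per-mouse median was 0.49, 0.53 and -0.16 in WT and 0.25, -1.88 and 0.47 in Rac1-/- mice, so that only Nas497 lay below the WT mice.

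The 5 genes of the COPII coat and of retrieval from the Golgi were all below 0, with a median of -0.54 and overlapping groups. Sec31a and Sec24d, coat subunits, had -0.64 each, Sar1b, the GTPase that starts coat assembly, had -0.54, Kdelr2, a receptor that returns escaped ER proteins, had -0.37, and Sec23b had -0.24. The range of this role was the narrowest of the 6.

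Genes of ER-associated degradation were split, with 5 below and 2 above 0 and a median of -0.43. Herpud1, a membrane scaffold of the degradation complex, had the lowest value (-0.79, SE 0.51), followed by Derl1 (-0.75, SE 1.09) and Derl2 (-0.43), which are thought to form the exit path. Edem1, which marks glycoproteins for disposal, had -0.46, and Edem2, of the same family, had 0.19. Sel1l, the adaptor of the ubiquitin ligase Syvn1, had -0.01. Syvn1 had 7.13, 7.01 and 7.04 in WT and 7.16, 8.07 and 6.60 in Rac1-/- mice, a log2 fold change of 0.21 (SE 0.50), with the highest and the lowest value both in Rac1-/- mice. The other probe set of Syvn1 gave -0.33 (SE 0.49). Direction also changed with the probe set for Edem2, whose other, dimmer one gave -1.04 (SE 0.72). It changed the other way for Derl1 (0.22 on another probe set), Derl2 (0.05) and Sel1l (0.09 and 0.10). All of these had overlapping groups.

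Among the sensors and transcription factors of the UPR, 6 of 8 lay below 0, with a median of -0.30. Xbp1, the transcription factor that Ern1 activates by splicing its mRNA, had log2 intensities of 10.90, 10.90 and 12.53 in WT and 9.77, 9.66 and 10.78 in Rac1-/- mice. All Rac1-/- values lay below all WT values, and Nas518 was within 0.12 of the lowest WT mice. The log2 fold change of Xbp1 was -1.37 (SE 0.60, limma adjusted p = 0.946), or -0.83 without the WT mouse Nas484, -0.62 without Nas484 and Nas497 and -2.50 with a common median. Unlike Dnajb9, Xbp1 was not moved in this way by Nas497 or by the actin covariate, at -1.17 without the mouse and -1.16 with the covariate.

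The other probe sets of Xbp1 had estimates further from 0. On the one where the groups again did not overlap, WT mice had 10.09, 10.57 and 11.47 and Rac1-/- mice had 9.26, 9.07 and 8.45 (-1.78, SE 0.53). The remaining probe sets gave -2.23 (SE 0.81) and -2.11 (SE 0.996) with overlap. Xbp1 thus had a lower Rac1-/- mean on all 4 of its probe sets and under all 13 alternative settings, from -2.50 to -0.62. Some of these settings change neither its probe set nor its values and return -1.37 by construction. They are no cross-hybridizing probe sets, genes above the median mean and a prior variance following the mean. Which form of the Xbp1 mRNA a probe set reads was not determined.

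In the Eif2ak3 branch the probe sets of a gene differed. Eif2ak3 itself had -0.35 (SE 0.51) on its brightest probe set and -0.01 on another, both with overlap, and -1.05 (SE 0.48) on the remaining one, where the groups did not overlap. Atf4, the factor translated when Eif2ak3 is active, had 9.40, 9.33 and 9.04 in WT and 9.11, 9.05 and 8.87 in Rac1-/- mice (-0.25, SE 0.42), with the groups overlapping by 0.07, and its other probe sets gave -0.57 and -1.09 with overlap. Ddit3, a proapoptotic factor downstream of Atf4, had 7.41, 6.49 and 7.99 in WT and 7.24, 7.93 and 7.26 in Rac1-/- mice, a log2 fold change of 0.18 (SE 0.53). The Rac1-/- values of Ddit3 all lay within the range of the WT mice. Its dimmer probe set gave -0.56 (SE 0.46), where all Rac1-/- values were below all WT values. Trib3, a pseudokinase induced by Atf4 and Ddit3, had 6.95, 7.19 and 5.13 in WT and 6.72, 6.84 and 7.23 in Rac1-/- mice, a log2 fold change of 0.51 (SE 0.61), which was the highest of the 39 genes. This rested on the WT mouse Nas484, without which the value was -0.15, and the other probe set gave -0.04.

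The sensor Atf6 had -0.61 (SE 0.48) and Ern1 had -0.02 (SE 0.78). Creb3l2, a membrane-bound transcription factor related to Atf6, had -0.72 (SE 0.79), with its highest value in Nas484. Over the 8 sensors and factors the per-mouse median was 0.09, 0.17 and 0.29 in WT and -0.39, 0.04 and -0.05 in Rac1-/- mice. Here the groups did not overlap and Nas497 was the highest of the Rac1-/- mice. For the lumenal chaperones WT mice had medians of 0.50, 0.32 and 0.18 and Rac1-/- mice had 0.01, -1.30 and 0.04, also without overlap.

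Other genes of the same pathway, listed by function, had smaller median differences in the same direction, apart from the stress regulators. Over 144 such genes in 5 lists the median was -0.27, with 106 below and 38 above 0, and 0 passed the adjusted test in limma, while 5 were lower (1.82% of all genes were) and 1 higher (2.23%) at an unadjusted p under 0.05. In 15 of them the Rac1-/- values all lay below the WT values (4.20% of all genes) and in 3 above (5.41%). Translocation, signal peptidase and oligosaccharyltransferase genes were the most one-sided, with 25 of 26 below 0 and a median of -0.43. Of these, Ssr4, another subunit of the complex of Ssr2, had -1.12 (SE 0.46) and Rpn2, of the oligosaccharyltransferase, had -1.08 (SE 0.49), both without overlap of the groups.

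Other folding factors had 27 of 35 below 0, with a median of -0.31, led by the prolyl isomerase gene Fkbp11 (-1.47, SE 0.60) and the Hsp70 gene Hspa13 (-1.30, SE 0.62), neither with overlap. Other degradation genes had 15 of 19 below 0 and a median of -0.28, with -0.88 for Nploc4 and -1.01 for Faf2, which act with the Vcp extractor. Other genes of transport between ER and Golgi had 24 of 33 below 0 and a median of -0.31. Members of that list went opposite ways, with -1.36 (SE 0.45) for the SNARE gene Stx5a and 1.46 (SE 0.57) for the retrieval receptor gene Kdelr3, whose Rac1-/- values all lay above all WT values.

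Other stress regulators and targets of Atf4 or Ddit3 were evenly split, with 15 below and 16 above 0 and a median of 0.08. Chac1, a glutathione-degrading target of Atf4, had 8.11, 8.68 and 7.10 in WT and 7.0, 6.39 and 6.45 in Rac1-/- mice, a log2 fold change of -1.35 (SE 0.53), and Atf5, a factor related to Atf4, had -1.11 (SE 0.51). In both the groups did not overlap. Heat shock chaperones of the cytosol, which are outside the ER, had 10 of 18 below 0 and a median of -0.11, with -1.80 (SE 1.01) for Hspa1b and -0.89 (SE 0.51) for Hsph1. Differences between these lists were not tested.

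**Figure D4:**
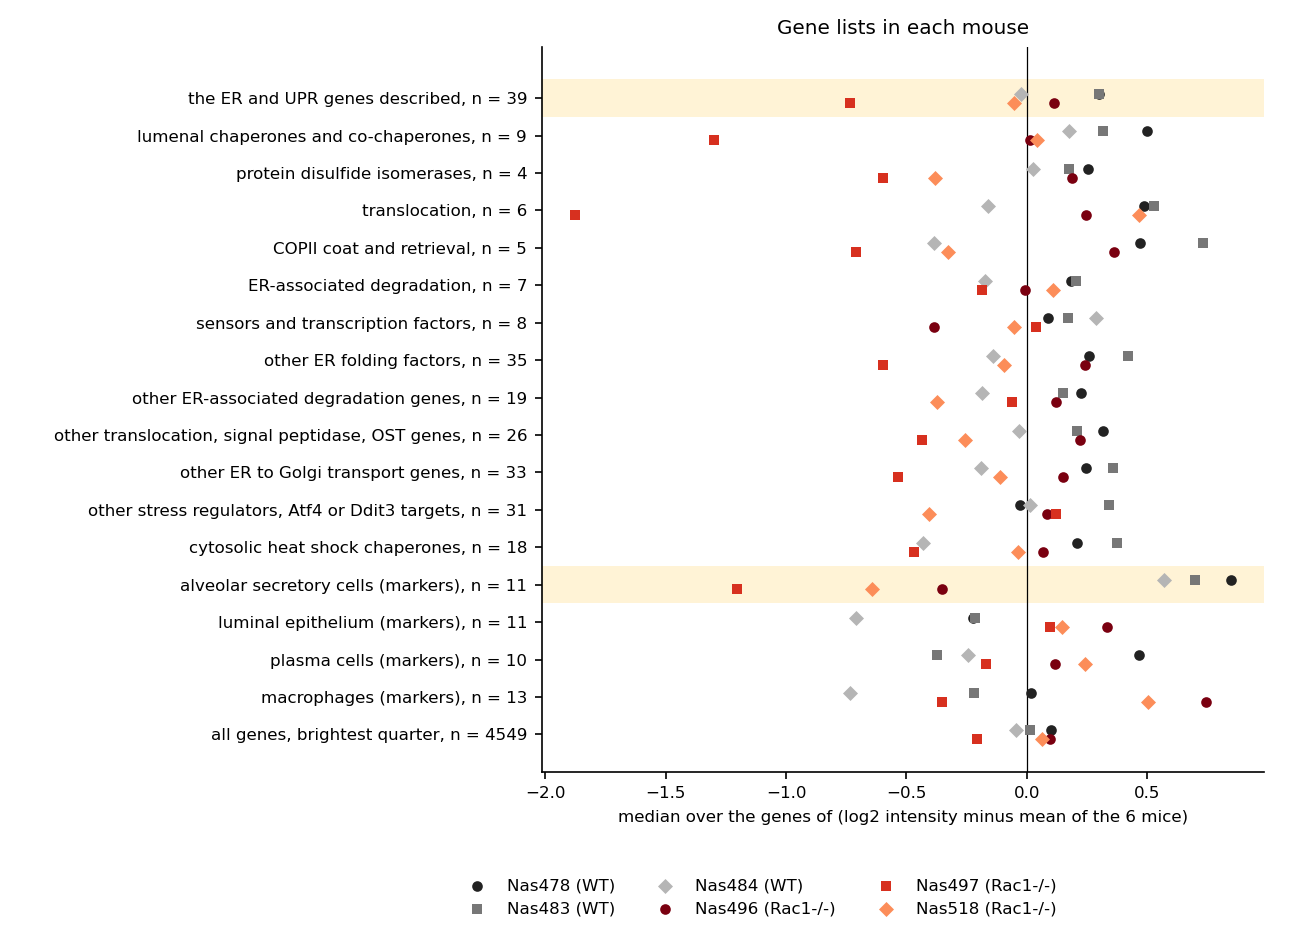
For each gene list (y axis, with its number of genes), the median over its genes of the distance of a mouse from the 6-mouse mean in log2 intensity (x axis), 1 symbol per mouse, with WT mice in greys and Rac1-/- mice in red to orange. The 39 ER and UPR genes and the alveolar secretory markers are shaded. The secretory markers separate the groups (WT 0.57 to 0.85, Rac1-/- -1.20 to -0.35), and for the 39 genes the groups overlap with Nas497 lowest.

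Markers of alveolar secretory cells, such as the caseins, Elf5 and Xdh, also had lower means in Rac1-/- glands. All 11 were below 0 with a median of -1.45, and 0 passed the adjusted test in limma. The groups did not overlap for 7 of them (4.20% of all genes) and 6 were lower at an unadjusted p under 0.05 (1.82% of all genes). No test compared them with the ER genes. Their summed intensity was 289736 to 307832 in WT and 101200 to 177372 in Rac1-/- glands, lowest in Nas497. The sum of 11 markers of luminal epithelium was 5642 to 7784 in WT and 7638 to 8448 in Rac1-/- glands, and the median of their log2 fold changes was 0.27. No marker of either list was at the floor of the scale. In whole glands, fewer cells of a type and less RNA per cell cannot be told apart.

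Plasma cells and macrophages are further cell types with much ER or secretion. Of 10 plasma cell markers, Fkbp11 is also on the list of other folding factors and Derl3 on that of other degradation genes. The sum of these markers was 2219 to 6865 in WT and 4488 to 5032 in Rac1-/- glands, and their median was 0.40. For 13 macrophage markers the sum was 2620 to 5238 in WT and 3930 to 8996 in Rac1-/- glands, with a median of 0.65. For both cell types the sums of the groups overlapped. The median was 0.31 for neutrophil, 0.09 for fibroblast, 0.16 for adipocyte, 0.34 for myoepithelial and -0.28 for skeletal muscle markers. The part of the mix of cells in the ER values was not tested.

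**Figure D5:**
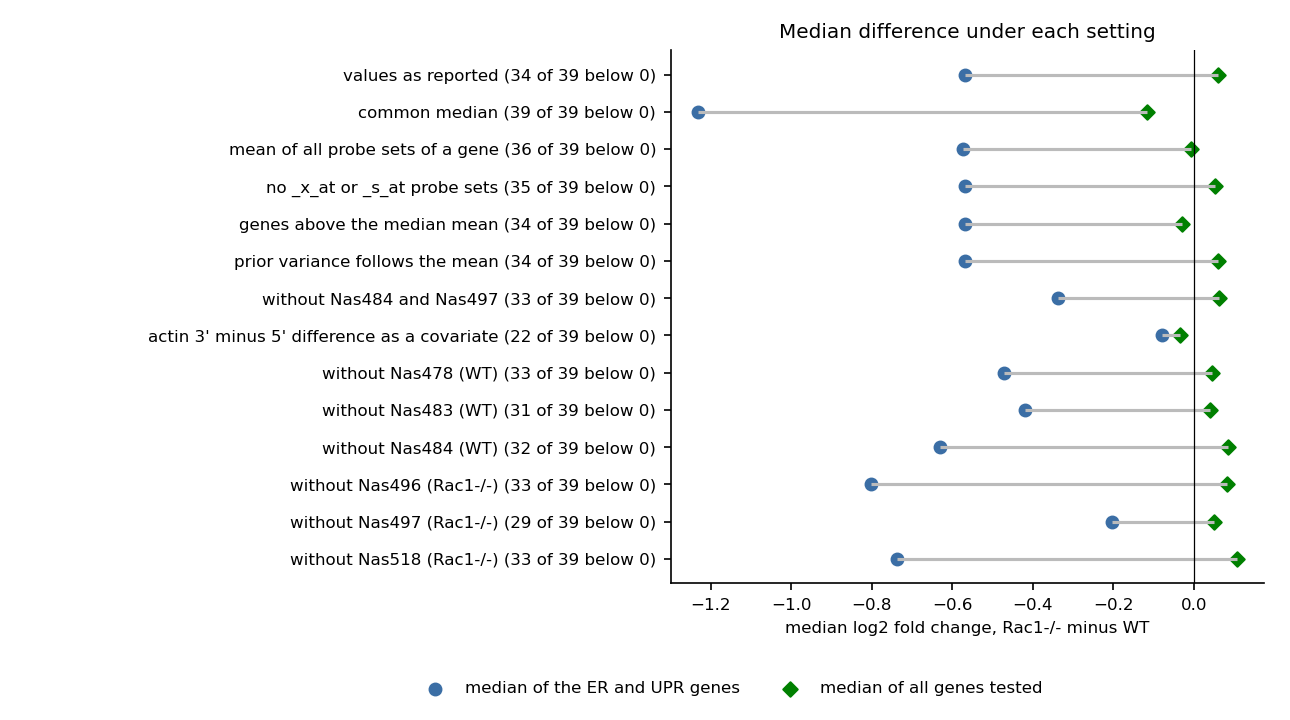
Median log2 fold change, Rac1-/- against WT (x axis) under each setting (y axis, with the number of the 39 genes below 0), as blue points for the ER and UPR genes and green diamonds for all genes tested. The blue point lies left of the green diamond under all 14 settings drawn, from -1.23 with a common median to -0.08 with the actin difference as a covariate, where the points nearly meet. A prior variance following the mean cannot move either point. The actin difference separates the genotypes, so its part and that of genotype cannot be told apart.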

How the data were processed

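RNA of 6 glands, 1 array per mouse and with no pooling stated, had been amplified with a kit for small or degraded samples. The deposited values are linear intensities of 45101 probe sets, which the authors scaled so that the mean of an array without its top and bottom 2% is 100. How probes were summarised is not given in the sources used here. Array medians ran from 40.6 to 88.0, and depth has no count on arrays, so the number of mice limits precision.

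From these intensities, values were quantile normalized, raised to at least 1 and taken to log2 (limma 3.58.1, R 4.3.3). A gene took its brightest probe set with a single symbol in the platform annotation (34958 had 1 symbol, 932 several and 9211 none). Genotypes were compared with lmFit and eBayes, adjusted over 18194 genes. An exact two-sided permutation test of 3 against 3 mice cannot go below p = 0.1. The fit was tested on simulated data before use, with 50 changed genes per size. It found 0 of them at a true log2 fold change of 1 and 1 at 2. At 3 it found 17 and at 4 it found 21, and there was 1 false call. Dnajb9, the ER gene furthest from 0, had -1.82. Failing the adjusted test therefore does not show that differences of the size seen in the ER genes are absent.

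The 40 genes, their roles, the other lists and the settings were chosen with earlier results of these data known. Values by mouse are given for genes whose groups did not overlap, the 3 largest differences in each direction, Hspa5, Xbp1, Atf4 and Ddit3, and the 2 smallest p per list of other ER genes are named. Ssr2, Sec61a1 and the other probe sets of Hyou1, Dnajc3, Canx, Edem2, Derl1, Derl2 and Sel1l were added after their values were seen. Alternatives were a common median, the mean of a gene's probe sets, no probe sets that may cross-hybridize, genes above the median mean, a prior variance following the mean, the actin difference as a covariate, and each mouse or both Nas484 and Nas497 left out. Each kept the probe set first chosen for a gene, unless the probe set was what it changed, and arrays were normalized again after any was left out. For Xbp1 another probe set is the brightest on the deposited scale. Protein sequences were not analysed here.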

Additional observations from a re-analysis of the deposited data

How the results depend on the processing

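Of 507 log2 fold changes of single ER genes under 13 alternatives, 449 kept their direction and 58 turned. Some of those kept could not have turned. A prior variance following the mean and the limit to genes above the median mean leave every log2 fold change as it was. The settings on probe sets leave unchanged each gene whose probe set they keep. The 449 therefore overstates how far the directions were tried. Genes that never turned were Atf4, Atf6, Derl2, Dnajb9, Eif2ak3, Herpud1, Hspa5, Hyou1, Pdia4, Sdf2l1, Sec24d, Sec31a, Ssr2 and Xbp1, 14 in all. In limma 0 genes passed under any alternative. The median of the 39 genes was -1.23 with a common median, -0.08 with the actin covariate (22 below 0) and -0.80 to -0.20 with 1 mouse left out. Genes lower at an unadjusted p under 0.05 numbered, with the share of all genes in parentheses, 4 with a common median (3.01%), 4 with the mean of probe sets (2.44%), 2 without cross-hybridizing probe sets (1.95%), 2 above the median mean (2.25%), 2 with the trended prior (1.73%), 0 without Nas484 and Nas497 (2.78%) and 1 to 4 without 1 mouse (1.02% to 2.95%). With the actin covariate the number was 1 (3.72%). Groups did not overlap, with Rac1-/- below, for 7 with a common median (6.65%), 8 with the mean of probe sets (5.75%), 13 without Nas484 and Nas497 (17.4%) and 5 to 12 without 1 mouse (6.61% to 11.77%), and with Rac1-/- above for 0 to 2 without 1 mouse, with 2 when Nas518 was left out (10.74%). Fewer mice make such separation more common by construction.

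The actin covariate turned Canx (1.28), Ddit3 (-0.43), Derl1 (1.83), Dnajc3 (0.43), Edem1 (0.52), Ern1 (1.62), Kdelr2 (0.38), Manf (0.029), P4hb (0.49), Pdia3 (0.041), Pdia6 (-0.26), Sar1b (0.93), Sec61a1 (2.28), Sec61b (0.75), Sec63 (0.49), Ssr1 (1.21), Ssr3 (0.59) and Syvn1 (-0.60). Leaving out Nas484 and Nas497 turned Hsp90b1 (0.20), Pdia6 (-0.016), Sec23b (0.057), Sec63 (0.17), Sel1l (0.14), Syvn1 (-0.23) and Trib3 (-0.11). A common median turned Ddit3 (-0.32), Edem2 (-0.57), Pdia6 (-0.59), Syvn1 (-0.36) and Trib3 (-0.036), the mean of probe sets Ddit3 (-0.19), Edem2 (-0.42), Pdia3 (0.033) and Syvn1 (-0.060), and no cross-hybridizing probe sets Trib3 (-0.039). With 1 mouse left out, values ran from -1.59 to 0.12 for Canx, -1.16 to 0.18 for Creb3l2, -0.21 to 0.55 for Ddit3, -1.65 to 0.43 for Derl1, -0.14 to 0.078 for Dnajb11, -0.061 to 0.34 for Edem2, -0.77 to 0.68 for Ern1, -0.72 to 0.083 for Hsp90b1, -0.99 to 0.080 for Kdelr2, -0.91 to 0.13 for Sar1b, -1.56 to 0.73 for Sec61a1, -0.11 to 0.16 for Sel1l, -1.16 to 0.25 for Ssr1, -0.69 to 0.051 for Ssr3, -0.20 to 0.57 for Syvn1 and -0.15 to 0.84 for Trib3. The cause was not tested.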
